A study of Mus musculus with 31 samples.

Results

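The absorptive cells at the surface of the colon were followed through 8 genes of salt, water, acid and bicarbonate handling, Slc26a3, Aqp8, Car1, Car4, Slc9a3, Slc5a8, Guca2a and Otop2. They were found by the gene name in the array files, which gave 12 probes of 56605 on the array. All 8 genes passed the filter on dim probes and were among the 19797 genes tested. RNA came from the distal colon of BALB/c mice, with 31 arrays in 8 groups. Every mouse had received azoxymethane, a carcinogen, and dextran sulphate sodium, which injures the colon epithelium, so that also the controls carry a chemically induced colitis and cancer model (CRC) and there was no group without it. In the study's methods the dextran sulphate sodium was given on the first 5 days. The 2-day groups were thus sampled during that course and the 7-day groups after it. The exposed groups (CRC + E171) had also received E171, food-grade titanium dioxide, by gavage at 5 mg/kg body weight per day, and the CRC groups water. Both arms were sampled after 2, 7, 14 and 21 days. A group held 4 arrays, 2 of males and 2 of females, except CRC at 21 days with 3 arrays, 1 of a male and 2 of females.

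Colonocytes mature while they move from the crypt to the surface, and there they take up sodium, chloride, water and short-chain fatty acids from the lumen. Sodium enters in exchange for protons through Slc9a3 (NHE3), and chloride in exchange for bicarbonate through Slc26a3 (DRA). Carbonic anhydrases, cytosolic Car1 and membrane-anchored Car4, supply the protons and bicarbonate for both exchangers. Aqp8 is a water channel of these cells, Slc5a8 carries short-chain fatty acids with sodium, Guca2a encodes guanylin, a peptide that acts on the receptor Gucy2c to turn the epithelium towards secretion, and Otop2 is a proton channel.

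Levels are given on the log2 scale relative to the 75th percentile of the signal of the same array, so that 0 lies at that percentile, and levels of different genes come from different probes and are not compared with each other. A gene was called a DEG when the linear fold change was at least 1.5 with an unadjusted p under 0.05 in limma. Adjusted p stands for the Benjamini-Hochberg value over every gene in the same limma fit. RNA was measured in bulk tissue, where fewer colonocytes and less RNA per colonocyte cannot be told apart. The labels do not say that each sample is a separate mouse, although the study's methods sampled 2 males and 2 females per group, so that p-values measure the spread between these samples.

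The promoter windows of 3 members are shown, a chloride exchanger, a water channel and a peptide whose levels were all low on the 3 arrays that stood apart. They are the 250 bases before the transcription start in RefSeq (GRCm38.p6, plus strand), at chr12:31437969-31438218 for Slc26a3, chr7:123462044-123462293 for Aqp8 and chr4:119637482-119637731 for Guca2a, with matches to 3 short motifs in capitals.
Slc26a3: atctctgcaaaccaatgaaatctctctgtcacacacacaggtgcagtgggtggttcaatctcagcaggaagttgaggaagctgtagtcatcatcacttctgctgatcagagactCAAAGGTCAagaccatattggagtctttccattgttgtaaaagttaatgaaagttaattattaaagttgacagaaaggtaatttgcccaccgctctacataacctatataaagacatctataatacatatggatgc
Aqp8: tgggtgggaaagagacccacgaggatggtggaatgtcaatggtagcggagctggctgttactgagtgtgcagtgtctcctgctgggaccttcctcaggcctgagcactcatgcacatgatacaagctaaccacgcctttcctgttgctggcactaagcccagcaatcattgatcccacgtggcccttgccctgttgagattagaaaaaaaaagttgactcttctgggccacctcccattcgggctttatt
Guca2a: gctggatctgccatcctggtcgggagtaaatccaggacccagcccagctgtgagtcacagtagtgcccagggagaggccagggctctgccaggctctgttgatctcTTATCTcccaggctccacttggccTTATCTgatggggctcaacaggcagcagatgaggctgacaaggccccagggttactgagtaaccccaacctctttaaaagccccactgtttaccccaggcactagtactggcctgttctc
The first motif searched, on both strands, was CAAAGNNCA, which HNF4 factors bind. The next was AGATAA, known from zinc-finger factors of the gut. The last was TTTATNG, known from CDX factors. The Slc26a3 window held CAAAGGTCA, which starts 136 bases before the transcription start. The Guca2a window held the second motif at 2 places on the minus strand, 144 and 120 bases before the start, printed as TTATCT. The Aqp8 window held none of the 3. Among 32851 windows of the table, 5.49% held the HNF4 motif, 9.99% the second and 9.81% the CDX motif. Windows were found for 7 of the 8 members, and of their 8 windows 1, 1 and 0 held these motifs.

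A set of 3 arrays stood apart from the other 28, a division made after the data had been seen. They were both male arrays of CRC at 7 days and male 2 of CRC + E171 at 14 days. On these arrays the list of neutrophil and calprotectin genes (8 of 9 measured, given as the median of the genes' log2 differences from their own 31-array means) reached 4.60, 5.34 and 4.95, while the other 28 arrays lay between -1.92 and 0.998. The goblet cell list (7 of 7 measured) was at -6.64, -2.45 and -3.86 there, and the pan-epithelial list (10 of 10 measured) at -3.30, -1.29 and -0.26. Male 1 of CRC at 7 days also held transcripts of squamous epithelium (7.38) and skeletal muscle (7.37), and male 2 held transcripts of pancreatic acinar cells (8.08). The part of any of these in the results was not tested. The counts of members and of listed genes at 7 days are given with and without these arrays. The comparison of males at 7 days could not be fitted without them, since no CRC male of that day remained. Depending on the array, between 67.4 and 78.9% of spots exceeded background by the scanner software's criterion (well above background). The library labelled male 2 of CRC at 14 days had Xist at -1.60, a level of the labelled females, and labelled sex was kept.

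Slc26a3, the chloride/bicarbonate exchanger, was measured by 3 probes, none of which was saturated. At 7 days its level in CRC was -7.59 and -4.49 in the males and 1.75 and 1.79 in the females. In CRC + E171 at 7 days it was 1.68 and 0.77 in the males and 2.09 and -0.39 in the females. Both CRC males thus lay below every array of CRC + E171, and both CRC females lay inside its range. At 2 days the CRC levels were 2.27, 2.02, 1.48 and 1.41 and those of CRC + E171 2.27, 2.67, 1.65 and 0.72. At 14 days CRC read 0.54, 2.61, 0.82 and 0.995, and CRC + E171 read 2.71, -4.49, 2.89 and -0.29, in the order male 1, male 2, female 1, female 2. At 21 days the 3 CRC arrays read 2.46, 1.60 and 2.03 and the CRC + E171 arrays 2.40, 2.66, 3.13 and 1.87. Outside the 3 arrays named above, the lowest Slc26a3 level was -0.39 and the highest 3.13, so that the low values were separated from the rest by a gap. The 3 probes, at chr12:32133697-32133992, chr12:32137633-32137692 and chr12:32139680-32139739 (mm9, as the array files give them), each read higher in the males of CRC + E171 than of CRC at 7 days. Both exposed males were well above background on every probe. CRC male 1 was so on none and male 2 on the first and the second, where the means of the signals as read differed by 7.93 and 7.85 on the log2 scale, values that male 1 at background leaves uncertain. On the third, with no CRC male well above background, the exposed males were at least 13.6-fold higher. The females differed by -1.37, -0.69 and -0.70.

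Aqp8, the water channel, was low on the same 3 arrays as Slc26a3. In CRC at 7 days it was at -3.69 and -3.50 in the males and at 6.40 and 6.30 in the females, and in CRC + E171 at 6.03, 5.37, 5.96 and 3.29. Its probe was well above background on all 31 arrays, so that the low male levels were measured ones. The females of CRC at 7 days were above all 4 arrays of CRC + E171. In the 4 CRC arrays at 2 days Aqp8 lay within 5.88 and 6.35. Male 2 of CRC + E171 at 14 days read -0.40, against 6.41, 6.95 and 3.13 on the other 3 arrays of its group.

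**Figure D1:**
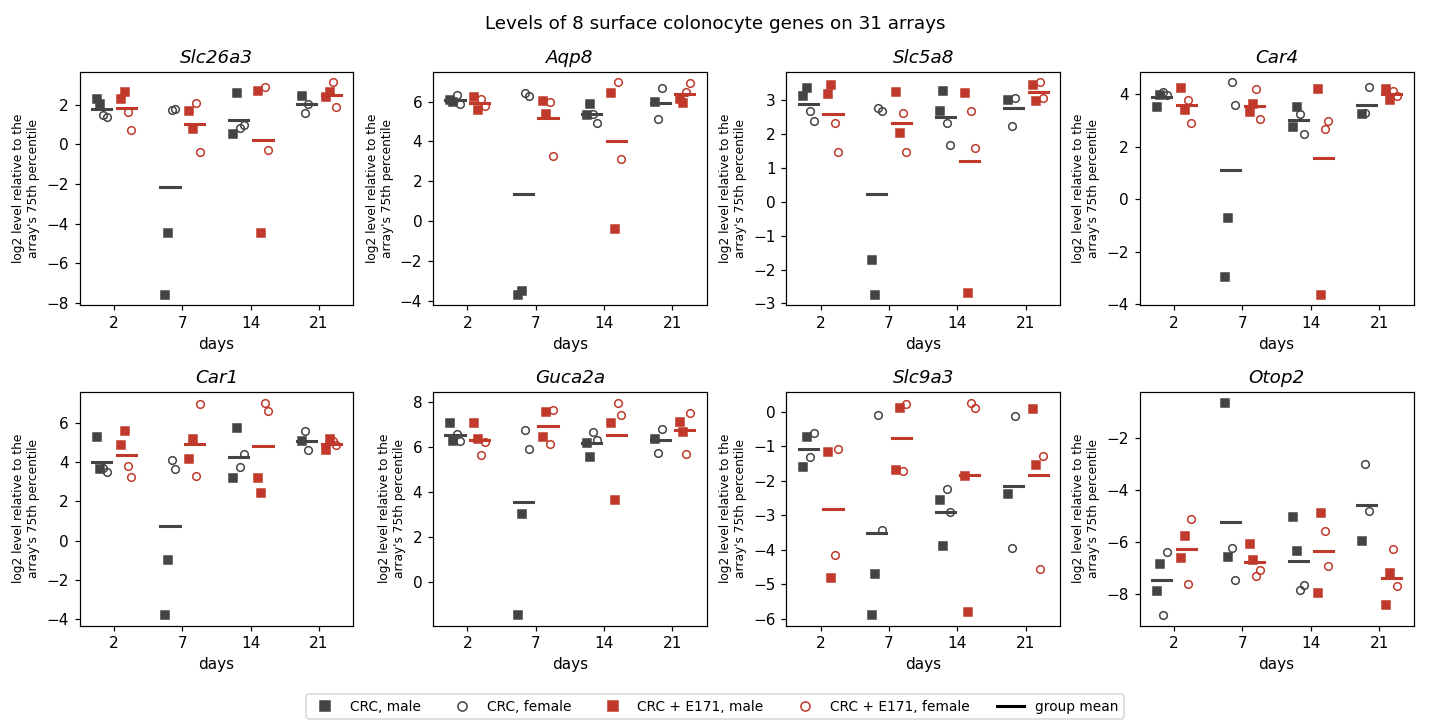
Level of each of the 8 genes on each array (vertical axis, log2 relative to the 75th percentile of the array) by day (horizontal axis), with CRC in grey, CRC + E171 in red, males as filled squares, females as open circles and group means as bars. Slc26a3, Aqp8, Slc5a8, Car4, Car1 and Guca2a had their lowest levels in both males of CRC at 7 days and male 2 of CRC + E171 at 14 days, while Otop2 had its highest level (-0.63) in male 1 of CRC at 7 days.

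The fatty acid carrier Slc5a8 read -1.72 and -2.75 in the CRC males at 7 days and 2.74 and 2.65 in the females, against 3.22, 2.02, 2.61 and 1.45 in CRC + E171. The membrane-anchored carbonic anhydrase Car4 read -2.95 and -0.73 in the same males and 4.44 and 3.60 in the females, against 3.31, 3.64, 4.21 and 3.04 in CRC + E171. The lowest Car4 level of all, -3.65, was in male 2 of CRC + E171 at 14 days. In both genes the CRC females overlapped the exposed arrays or exceeded them.

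Car1, the cytosolic carbonic anhydrase, read -3.78 and -1.01 in the CRC males at 7 days and 4.08 and 3.65 in the females. The exposed arrays of that day read 4.14, 5.20, 3.29 and 6.97. Guanylin (Guca2a) was at -1.44 and 3.02 in the CRC males, at 6.74 and 5.90 in the females and at 6.44, 7.55, 6.12 and 7.64 in CRC + E171. Male 2 of CRC + E171 at 14 days was at 2.42 for Car1 and 3.65 for Guca2a, each above both CRC males of 7 days and below all 28 arrays outside the set. Both Car1 probes, at chr3:14770171-14770230 and chr3:14767486-14767545 (mm9), showed the male difference at 7 days, with 7.42 and 6.71.

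Slc9a3, the sodium/proton exchanger, also varied within groups other than CRC at 7 days. In CRC at 7 days it was at -5.90 and -4.70 in the males and at -0.10 and -3.42 in the females, and in CRC + E171 at -1.70, 0.10, -1.71 and 0.22. In CRC + E171 at 2 days it read -1.17, -4.84, -4.15 and -1.08. Over all 31 arrays Slc9a3 ranged from -5.90 to 0.27 with a median of -1.70. Of its 2 probes, the one at chr13:74300566-74301172 (mm9) was well above background on 19 of 31 arrays and the one at chr13:74306830-74306889 on all 31.

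Within groups these genes were among the more variable on the array. The SD within groups was 2.20 for Slc26a3, 2.48 for Aqp8, 1.83 for Car1, 1.84 for Car4, 1.85 for Slc9a3, 1.52 for Slc5a8, 1.59 for Guca2a and 1.54 for Otop2, against a median of 0.44 over all genes. Ordered by group mean, 54 of the 56 neighbouring pairs of groups (7 for each gene) were closer than the larger of their 2 SDs. The exceptions were Aqp8 in CRC + E171 at 2 days against CRC at 14 days and Car4 in CRC + E171 at 7 days against CRC at 14 days. The lowest mean was that of CRC at 7 days in Slc26a3 (-2.14 ± 4.68, SD, n = 4), Aqp8 (1.38 ± 5.74), Car1 (0.74 ± 3.79), Car4 (1.09 ± 3.52), Slc5a8 (0.23 ± 2.88), Guca2a (3.56 ± 3.69) and Slc9a3 (-3.53 ± 2.50). For 5 of these genes its SD was also the largest of the 8 groups. CRC + E171 at 14 days had a larger SD in Car4 (3.53) and Slc9a3 (2.83).

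The first comparison asked whether E171 changed these genes on a given day. At 7 days 5 of the 8 were up-regulated in CRC + E171, where 6.93% of all genes tested were called higher. Slc26a3 rose by 3.18 ± 1.49 on the log2 scale (SE, adjusted p = 0.284 in limma), a difference of measured means in which CRC male 1 was not well above background on any probe. Aqp8 was 13.8-fold higher (3.78 ± 1.67, adjusted p = 0.263 in limma). Car1 was 17.9-fold higher (4.16 ± 1.24, adjusted p = 0.197 in limma). Guca2a rose by 3.38 ± 1.08 (adjusted p = 0.197 in limma) and Slc9a3 by 2.76 ± 1.25 (adjusted p = 0.274 in limma), and no member passed the adjusted threshold, nor did any other gene (the smallest adjusted p of all was 0.188 in limma). The Slc9a3 value averages 2 probes, of which one was well above background on only 1 of 4 CRC arrays (a difference of 2.13 in measured means) and the other on all 4 (3.39). Car4 (2.46 ± 1.24, adjusted p = 0.317 in limma) and Slc5a8 (2.09 ± 1.03, adjusted p = 0.303 in limma) missed the threshold, and Otop2 was at -1.55 ± 1.04. The median over the 8 genes was 2.97, against -0.01 over all genes tested. For no member were the 2 groups free of overlap (4.85% of all genes were), and exact two-sided permutation tests over the 8 arrays gave p from 0.0857 (Slc9a3) to 0.514 (Otop2), with 0.0286 the smallest they can give. Without the 3 arrays high in neutrophil genes none of the 8 was called at 7 days (1.22% of all genes were called higher), and Aqp8 was at -1.19, Slc26a3 at -0.73, Car1 at 1.03 and Guca2a at 0.62.

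Leaving out either CRC male of 7 days alone left Car1 and Guca2a called at 7 days, where 2.66% of all genes were called higher without male 1 and 4.27% without male 2.

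Only 1 scan day held both groups of 7 days (2 arrays of each). There CRC + E171 exceeded CRC by 4.81 in Slc26a3, 4.63 in Aqp8, 3.56 in Car1 and 1.29 in Slc9a3, while Otop2 differed by -3.24. The CRC arrays of that scan day were male 1, which was high in neutrophil genes, and female 1. Aqp8 read -3.69 and 6.40 on these, against 6.03 and 5.96 in CRC + E171, so that its difference came from male 1. With scan day as a fixed block Car1 and Guca2a were called at 7 days, where 5.17% of all genes were called higher. No slide held both arms of the same day, so slide and E171 cannot be told apart within a day. Slides shared with other days allow an estimate for means over days, not for a single day.

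At 2 days none of the 8 was called (1.72% of all genes were), with log2 fold changes from -1.73 (Slc9a3) to 1.20 (Otop2). At 14 days none was called (6.34% of all genes), and values ran from -1.45 (Car4) to 1.08 (Slc9a3). Without the 3 arrays high in neutrophil genes, Guca2a (1.29 ± 0.44) and Slc9a3 (2.40 ± 1.08) were called higher at 14 days, as were 6.59% of all genes in that fit. Of the 3 exposed arrays left there, both females had low posterior Hox genes, described further on, with Guca2a at 7.96 and 7.41 and Slc9a3 at 0.27 and 0.11, against 7.04 and -1.87 in the male. With these females left out as well, 1 exposed array remained, whose spread is assumed to be that of the other groups. It differed from CRC by 0.86 in Guca2a, 1.035 in Slc9a3, 1.03 in Aqp8, 1.20 in Car4 and 1.47 in Slc26a3. Slc5a8 was at 0.71, Car1 at -1.09 and Otop2 at -1.25. In that fit 3.28% of all genes were called higher, but a single array cannot show its own spread, so no call of a member is drawn from it. At 21 days Otop2 alone was called, as lower (1.82% of all genes), and the other 7 lay between -0.15 and 0.48. For the mean over the 4 days, with slide as a block, no member was called (1.80% of all genes), and Car1 came nearest (1.18 ± 0.67, adjusted p = 0.529 in limma). The E171 effect was not shown to differ between days for any member (6.51% of all genes at an unadjusted p under 0.05), with F test p from 0.0576 (Otop2) to 0.253 (Slc26a3) in limma.

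The second comparison asked whether the effect differed between males and females, in a model of 16 groups with 2 arrays each, or 1 for CRC males at 21 days. At 7 days 6 of the 8 members were higher with E171 in males at an adjusted p under 0.05, where 15.2% of all genes passed in either direction. Aqp8 rose by 9.29 ± 1.46 (adjusted p = 0.000583), Slc26a3 by 7.27 ± 1.58 (0.00521, with CRC male 1 not well above background), Car1 by 7.06 ± 1.02 (0.000342), Guca2a by 6.20 ± 1.12 (0.00159), Car4 by 5.31 ± 1.46 (0.0208) and Slc5a8 by 4.85 ± 1.12 (0.00751). In females none was called (2.00% of all genes), and the values lay between -1.72 (Aqp8) and 1.27 (Car1). Female 2 of CRC + E171, an array low in posterior Hox genes, set both ends, and without the arrays of that kind Aqp8 was at -0.39 and Car1 at -0.57. The difference itself, males minus females, was 11 ± 2.06 for Aqp8 (adjusted p = 0.00826) and 5.80 ± 1.44 for Car1 (adjusted p = 0.0343), and 3.69% of all genes passed that test. Without the arrays low in posterior Hox genes it was 9.68 for Aqp8 (adjusted p = 0.0368) and 7.64 for Car1 (adjusted p = 0.0235). At an unadjusted p under 0.05 it held for 6 of the 8 (18.2% of all genes), the others being Slc9a3 (3.49 ± 2.29) and Otop2 (-2.43 ± 2.04). At 14 days the difference was called for Car1 only (-4.43 ± 1.44, adjusted p = 0.379 in limma, 8.17% of all genes at the unadjusted threshold). Without male 2 of CRC, the library with Xist at the level of females, it was -3.17 ± 1.501 and not called. Both exposed females of that day were low in posterior Hox genes. Their Car1 levels (7.03 and 6.62) were above those of every array not low in these genes. Exposed male 2 was high in neutrophil genes (Car1 at 2.42). Without the arrays high in neutrophil genes the difference was -4.05, with 1 exposed male left. Without both females the difference could not be fitted. At 2 and 21 days it was called for no member (0.233% and 1.21% of all genes).

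**Figure D2:**
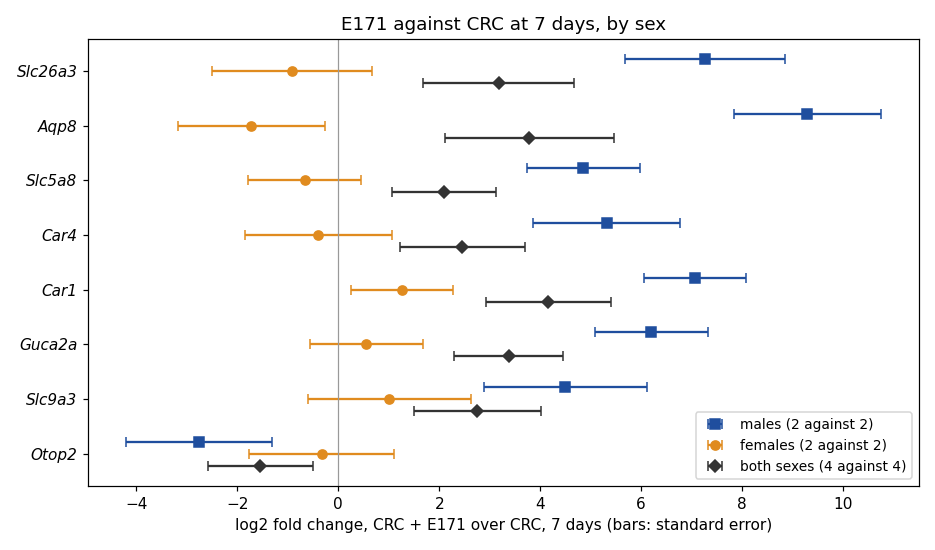
Log2 fold change of CRC + E171 over CRC at 7 days for each gene (horizontal axis, bars are standard errors from limma), in males (blue squares), females (orange circles) and both sexes (grey diamonds). The male values of the 7 genes other than Otop2 lie between 4.50 and 9.29, and the female values of all 8 between -1.72 and 1.27.

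The male difference at 7 days rested on the CRC arrays. In Slc26a3 the exposed males of that day read 1.68 and 0.77, where the CRC arrays of 2 days spanned 1.41 to 2.27, and in Aqp8 they read 6.03 and 5.37, where those arrays spanned 5.88 to 6.35. Leaving out male 1 of CRC at 7 days, the difference between the sexes was 10.9 for Aqp8 (adjusted p = 0.0212), and leaving out male 2 it was 11.1 (adjusted p = 0.00754), with 1 CRC male left whose spread is assumed to be that of the other groups. For Car1 the values were 4.41 (adjusted p = 0.111) and 7.19 (adjusted p = 0.0055). As both CRC males also were the arrays with high neutrophil and low goblet lists, sex and the makeup of those 2 samples cannot be told apart at 7 days.

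The third comparison followed the days within each arm. Each day of an arm lay on slides of its own, so day and slide cannot be told apart within an arm. From 2 to 7 days in CRC, 6 members fell (6.20% of all genes did). They were Aqp8 (-4.69 ± 1.67), Slc26a3 (-3.93 ± 1.49), Car1 (-3.29 ± 1.24), Guca2a (-2.98 ± 1.08), Car4 (-2.78 ± 1.24) and Slc5a8 (-2.64 ± 1.03), with limma p from 0.00958 to 0.0343 and adjusted p from 0.212 to 0.259. Slc9a3 was at -2.45 ± 1.25 (adjusted p = 0.313 in limma), and Otop2 was called higher (7.21% of all genes were), by 2.25 in means as read. With 2 of 4 arrays well above background at 7 days and none at 2 days, the size of that rise is uncertain. Without male 1 of CRC at 7 days the fitted Otop2 difference was 0.72 and not called. Without the 3 arrays high in neutrophil genes none of the 8 was called (2.30% of all genes were, in either direction). From 7 to 21 days in CRC, Slc26a3 (4.17), Aqp8 (4.56), Car1 (4.36), Guca2a (2.73) and Slc5a8 (2.53) rose (4.64% of all genes did), with adjusted p from 0.386 to 0.416 in limma, and without those arrays only Otop2 was called, as higher (1.39% of all genes were). Between CRC at 21 and 2 days only Otop2 was called (higher, as were 2.11% of all genes), and the other 7 lay between -1.08 and 1.07. These comparisons share the CRC arrays of 7 days with each other and with the E171 comparison of that day.

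In CRC + E171 no member was called between 7 and 2 days (3.27% of all genes), 21 and 7 days (7.79%) or 21 and 2 days (7.39%). The largest of these values was 2.04 in Slc9a3 from 2 to 7 days. Without male 2 of CRC + E171 at 14 days and both CRC males, the same model called Slc26a3 (1.47 ± 0.61) and Slc5a8 (0.91 ± 0.43) higher at 21 than at 7 days in this arm, as were 3.87% of all genes. Over both arms with slide as a block, Slc26a3 (2.74 ± 1.11), Aqp8 (2.84 ± 1.27), Car1 (2.29 ± 0.96) and Slc5a8 (1.67 ± 0.77) rose from 7 to 21 days (2.91% of all genes did), with adjusted p from 0.287 to 0.334 in limma. Without the 3 arrays none did. From 2 to 14 days over both arms none was called (5.28% of all genes).

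**Figure D3:**
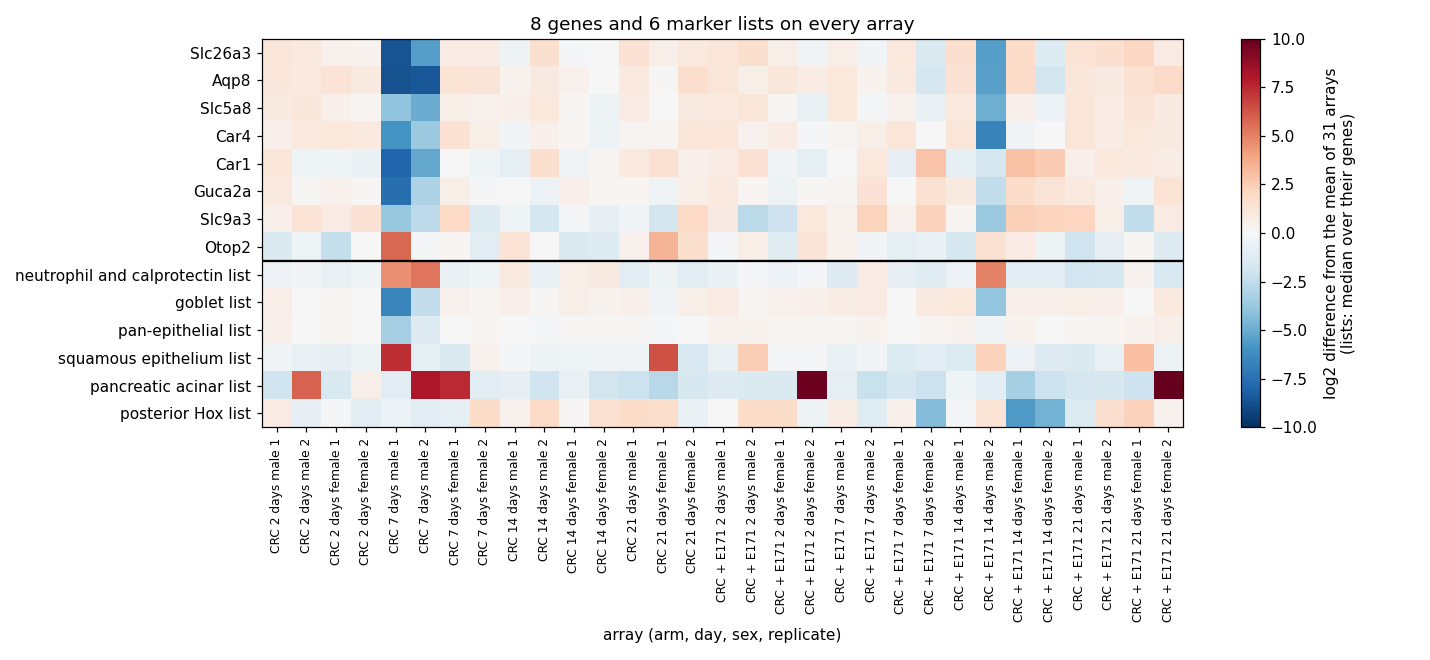
The 8 genes (upper rows) and 6 marker lists (lower rows) on each of the 31 arrays (columns, by arm, day, sex and replicate), coloured by the log2 difference from the mean of the 31 arrays, a list by the median over its genes. Both males of CRC at 7 days and male 2 of CRC + E171 at 14 days are low (blue) in the 7 genes other than Otop2 and high (red) in the neutrophil list (4.60, 5.34 and 4.95).

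A second set of arrays differed in another way. In CRC + E171, female 2 at 7 days and both females at 14 days had the list of posterior Hox genes (6 of 6 measured), which mark the hindmost part of the gut, between -5.66 and -4.32, while the other 28 arrays lay between -1.40 and 2.34. On these 3 arrays Car1 was between 6.62 and 7.03, above all others (up to 5.72). Guca2a there was between 7.41 and 7.96, and on the other arrays at most 7.55. Slc9a3 was between 0.11 and 0.27, against at most 0.10 elsewhere. Aqp8 was low on 2 of the 3, at 3.29 and 3.13, and at its highest (6.95) on female 1 of CRC + E171 at 14 days. Slc26a3 split the same way, with -0.39, -0.29 and 2.89. The part that the stretch of colon sampled has in these levels was not tested. Without the 3 arrays, Aqp8, Car1, Guca2a, Slc26a3 and Slc5a8 were called at 7 days, where 6.26% of all genes were called higher in that fit.

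Leaving out both sets, 25 arrays remained, and pairs of members still differed in how closely they ran together across arrays. Over these arrays Slc26a3 and Slc5a8 had a Pearson's r of 0.805 (Spearman's rho 0.786), Aqp8 and Car4 had 0.746 (0.728), Slc9a3 and Guca2a had 0.708 (0.665), and Slc26a3 and Aqp8 had 0.523 (0.461). Slc26a3 and Guca2a had -0.0594 (0.0646), and Aqp8 and Car1 had -0.0644 (-0.0946). All are descriptions, over arrays that share slides, scan days and groups.

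**Figure D4:**
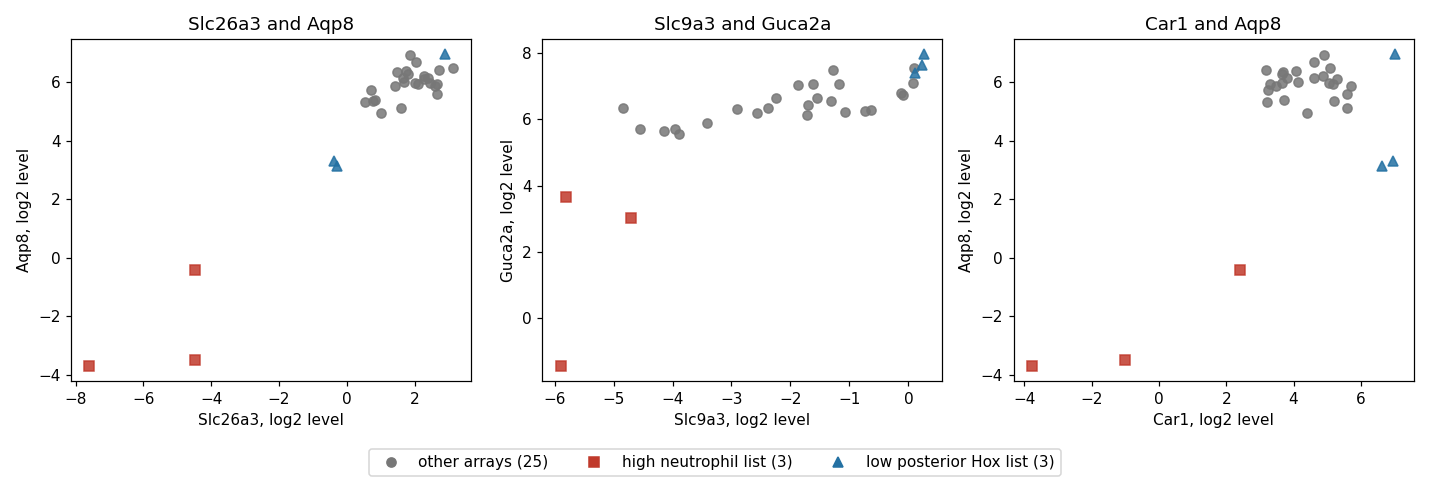
Levels of 3 pairs of members (log2 relative to the 75th percentile of the array), each point 1 array, with the 3 arrays high in neutrophil genes as red squares and the 3 low in posterior Hox genes as blue triangles. Slc26a3 and Aqp8 are low together on the red arrays, and in the third panel the blue arrays have the highest Car1 levels (6.62 to 7.03) with Aqp8 at 3.13, 3.29 and 6.95.

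Otop2, the proton channel, went against its place among these genes. Its only probe (chr11:115193550-115193609, mm9) was well above background on 12 of 31 arrays, on none of the 4 arrays of CRC at 2 days, of CRC + E171 at 7 days and of CRC + E171 at 21 days. It was highest on male 1 of CRC at 7 days (-0.63) and female 1 of CRC at 21 days (-2.99). These were also the 2 arrays with the highest squamous list (7.38 and 6.34, 9 of 10 genes measured), and the other 29 were at most at 3.0. Male 2 of CRC + E171 at 14 days was at 2.30 for the list and -4.89 for Otop2, but its squamous keratins Krt5 (6.58) and Krt14 (6.83) were no lower than on female 1 of CRC at 21 days (5.60 and 6.71). Otop3, its neighbour on chromosome 11, read 2.50 and -1.14 on these 2 arrays and -2.63 or less on the other 29. Whether the Otop2 signal there has to do with squamous tissue was not tested.

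At 21 days Otop2 read -5.97, -2.99 and -4.81 in CRC, where 3 of 3 arrays were well above background. In CRC + E171 it read -8.43, -7.21, -6.28 and -7.68, where none was. The groups did not overlap (8.01% of all genes), and Otop2 was at least 2.58-fold lower in CRC + E171, computed against the lowest signal well above background on each dim array. The fitted log2 fold change was -2.81 ± 1.13 (adjusted p = 0.854 in limma), and the exact permutation p was 0.0286, the smallest that 4 against 3 arrays can give. Without female 1 of CRC at 21 days the bound was 1.48-fold and the fitted value -2.01 and no longer called, and with normexp background correction -0.85 and not called. Against CRC at 2 days, Otop2 in CRC at 21 days was at least 3.34-fold higher (adjusted p = 0.901 in limma). Without female 1 of CRC at 21 days that bound was 1.92-fold and Otop2 was not called, nor was it called with normexp. At 7 days Otop2 read lower in CRC + E171 (-1.55 ± 1.04), which did not pass the test (adjusted p = 0.461 in limma). Only 2 of 4 CRC arrays were well above background there, so no lower limit of the fold change is given. The difference at 7 days rests on male 1 of CRC, without which the fitted value was -0.0153.

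**Figure D5:**
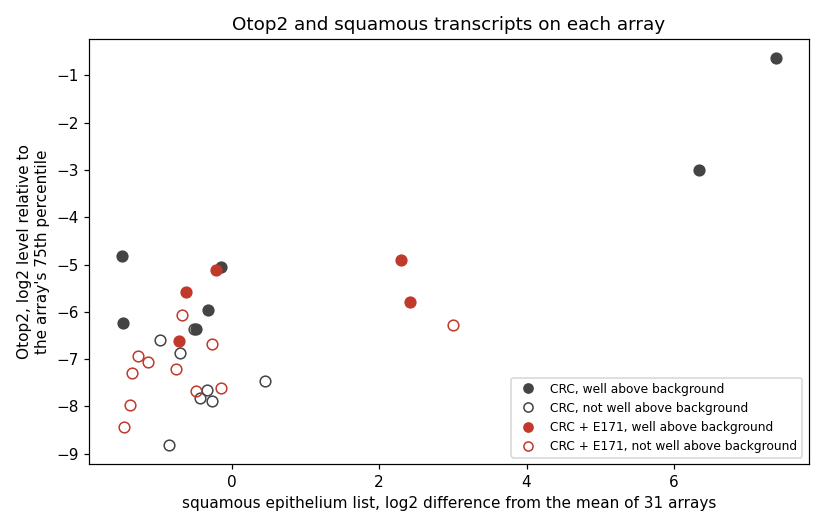
Otop2 level (vertical axis, log2 relative to the 75th percentile of the array) against the squamous epithelium list (horizontal axis, log2 difference from the mean of 31 arrays), CRC in grey and CRC + E171 in red, filled where the Otop2 probe was well above background. The 2 arrays with the list above 6 have the highest Otop2 levels, -0.63 and -2.99.

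Genes beside the members on their chromosomes did not all move with them. Of 6 neighbours measured (Guca2b, Otop3, Car2, Car3, Car13 and Slc26a4), at 7 days Guca2b, which encodes uroguanylin, was up-regulated in CRC + E171 (1.60 ± 0.74, adjusted p = 0.279 in limma) and Car13 was down-regulated (-0.72 ± 0.31, adjusted p = 0.256 in limma). Car2 was at 1.09, Slc26a4, close to Slc26a3, at 0.14 and Car3 at -0.44, and none of these 3 was called. Otop3 had the largest difference of the 6, -2.22 ± 1.30 (adjusted p = 0.387 in limma), and was not called. The median of the 6 was -0.15. Over all genes tested 6.93% were called higher and 5.48% lower at 7 days, beside which this count and those of the lists that follow stand.

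Partners in ion, water and acid-base transport were mixed. Of 28 listed genes 27 were tested, and at 7 days 8 were up-regulated in CRC + E171, 2 down-regulated and the rest not called, with a median of 0.48. The 2 down-regulated genes were Car13, named above, and Otop1, another proton channel (-1.02 ± 0.48). Cftr, the chloride channel of secretion, rose by 2.27 ± 0.75, Slc9a2, another sodium/proton exchanger, by 2.70 ± 0.85, Slc26a2, a sulphate transporter, by 1.81 ± 0.71, and Gucy2c, the guanylin receptor, by 1.88 ± 0.69. The sodium pump subunit Atp1b1 rose by 1.20 ± 0.44 and the bicarbonate cotransporter Slc4a4 by 1.46 ± 0.63. The water channels Aqp1 (-0.53), Aqp3 (-2.79) and Aqp4 (0.76) were not called, unlike Aqp8. Of 6 genes of aldosterone-regulated sodium uptake, Hsd11b2, which protects the mineralocorticoid receptor from glucocorticoids, rose by 2.43 ± 1.06 and the receptor Nr3c2 by 1.99 ± 0.65. The sodium channel subunits Scnn1a (0.57), Scnn1b (-0.14) and Scnn1g (-0.69) and Sgk1 (-0.28) were not called.

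Of 17 genes of surface enterocyte differentiation 12 were up-regulated at 7 days and none down-regulated, with a median of 1.56. Among them were the brush border protease Mep1a (4.89 ± 1.55), the fatty acid binding protein Fabp2 (3.85 ± 1.44), the membrane mucin Muc3 (2.64 ± 0.71) and the keratin Krt20 (1.54 ± 0.52). Of 11 transcription factors of the colonocyte 9 were up-regulated, with a median of 1.52, among them Cdx2 (2.72 ± 0.89) and Hnf4a (2.43 ± 0.81), while Klf4 (0.62) and Ppara (1.08) were not called. No gene of these lists had an adjusted p under 0.05 over both sexes. In females of 7 days the medians were 0.45 for the differentiation list and -0.05 for the transcription factors, and in males 3.0 and 2.77. The lists were read in the same contrast as the members and share its low males. When the 3 arrays high in neutrophil genes were left out, no gene of the neighbours, the transport partners, the differentiation list or the transcription factors was called at 7 days in limma, and their medians were -0.15, -0.15, 0.25 and -0.0968. In the aldosterone list Scnn1b (-0.80), Scnn1g (-3.49) and Sgk1 (-1.06) were called lower without those arrays, each at an adjusted p of 0.999 in limma, while Hsd11b2 and Nr3c2 were not called. In that fit 1.22% of all genes were called higher and 1.43% lower.

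The genes most like the members were named by Pearson's r over the 31 arrays with the mean of the 8 centred members. Among the 10 highest were Slc9a2 (0.98), Hao2 (0.97), Kcnk5 (0.968), Clcn2 (0.968), Akr1c14 (0.964), Tmem171 (0.963), Fcgbp (0.963), Tubal3 (0.961) and Ces2c (0.957). Without the 3 arrays high in neutrophil genes, r over the other 28 was 0.703 for Slc9a2, 0.766 for Clcn2 and 0.43 for Fcgbp, a goblet cell product. Slc9a2 read between -6.16 and -4.55 on the 3 arrays and between -1.98 and -0.22 on the others. The 5 most opposite genes were Sh2d5 (-0.965), Ctla2b (-0.925), Ctla2a (-0.92), Sh3pxd2b (-0.915) and Lcn2 (-0.915), the last an iron-binding protein of neutrophils and inflamed epithelium, whose r over the other 28 arrays was 0.0143. Over those arrays Sh2d5 had -0.675, Sh3pxd2b -0.597, Ctla2b -0.338 and Ctla2a -0.291.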

How the data were processed

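RNA of distal colon was hybridised to 1-colour Agilent arrays, and the authors extracted the spots with Feature Extraction 10.7.3.1. The deposited processed signal is a background-subtracted intensity, not normalized between arrays. The deposited value table of 42568 probes holds log2 values that the authors had filtered by spot flags, missing values and mean expression and imputed with a nearest-neighbour module of GenePattern, with a normalization not given in the sources used here. Its columns had medians from 9.43 to 9.67 and each correlated best with its own array (r from 0.991 to 1.00), so that scale and direction were known and the centring was not. The submitters' processing notes name limma.

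Control spots and spots marked as outliers were left out. Each signal was divided by its array's 75th percentile, put on the log2 scale and averaged over spots of a probe, then over probes of a gene. The filter asked for 60% of the arrays of some group above background and a mean log2 of 4 or more, which left 42787 probes. Of these, 26956 were matched to RefSeq by accession, 7020 by symbol, 368 by synonym and 8443 not at all. Members were taken by the array's gene name.

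A limma 3.58.1 model over the 8 groups (R 4.3.3, statmod 1.5.0) gave the contrasts, with slide as a block for means over both arms or all days, and a model of 16 groups gave the sexes. P-values were adjusted over all genes tested. Exact permutation tests were two-sided. The code was tested on simulated data. The number of arrays limits the precision. Replicate numbers were not used as pairs, since only 8 of 15 same-numbered pairs of a day had deviations that correlated above 0.1. The named genes were the 8 members, 5 lists of related genes and the 10 most and 5 least alike genes, of which 1 is not reported here. The 8 members and all lists were chosen with earlier results of these data known.

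Alternatives were the authors' values, array weights, quantile normalization, the brightest probe, normexp (offset 50), other filters on dim probes, sex as a covariate, a replicate block, slide as a random block or no slide term, other thresholds, only the arrays compared, and leaving out each array. Scan day as a block and leaving out arrays by neutrophil (over 4), squamous (over 6), posterior Hox (under -4) or pancreatic (over 5) list were added after the data had been seen.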

Additional observations from a re-analysis of the deposited data

Results flagged for a closer look

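Car1 in CRC at 2 days had 1 array far from the other 3. Male 1 read 5.30, and the others 3.65, 3.68 and 3.47, so that the gap was 0.885 of the range of the group, above Dixon's critical value for 4 arrays. Of 56 groups of 4 arrays tested (8 genes in 7 groups) it was the only one, and chance gives about 1 in 20.

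The effect of E171 at 7 days differed between males and females in Aqp8, by 11 on the log2 scale, and in Car1, by 5.80, at adjusted p of 0.00826 and 0.0343 in limma. Aqp8 in the 2 CRC males was at -3.69 and -3.50 against 6.40 and 6.30 in the CRC females of that day.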

How the results depend on the processing

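Of the 15 counts of called members, that of E171 at 7 days (5) ranged from 2 to 7 when each array was left out, with 2 without male 1 or male 2 of CRC or male 2 of CRC + E171 and 3 without male 1 or female 1 of CRC + E171. The ranges were 0 to 1 for E171 at 21 days (0 without female 1 of CRC or male 1 of CRC + E171), 0 to 8 for CRC 7 against 2 days (0 without male 1 and 2 without male 2 of CRC at 7 days), 1 to 6 for CRC 21 against 7 days (1 without male 2 and 2 without male 1 of 7 days, 2 without female 2 and 3 without male 1 of 21 days), 0 to 1 for CRC 21 against 2 days (0 without female 1 of either day), 0 to 2 for the 4 days (2 without female 1 and 1 without female 2 of CRC at 7 days or male 2 of CRC + E171 at 14 days), 0 to 6 for 21 against 7 days over both arms (0 without either CRC male of 7 days, 1 without female 2 and 2 without male 1 of CRC at 21 days, 2 without any 1 female of CRC + E171 at 7 or 21 days), 0 to 6 for the difference between days (6 without female 1 and 5 without female 2 of CRC at 7 days) and 6 to 13 for that between sexes (7 of 32 pairs of gene and day, 13 without male 1 of CRC + E171 at 14 days). The other 6 counts stayed at 0 in that check.

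Array weights gave 0 for E171 at 7 days, CRC 7 against 2 days, CRC 21 against 7 days and 21 against 7 days over both arms, and 1 for the 4 days (Car1) and for 14 against 2 days (Car4). With only the arrays compared the counts were 1 at 7 days (Car1), 0 for CRC 7 against 2 and 21 against 7 days, and 2 for CRC + E171 21 against 7 days. Quantile normalization and the authors' values gave 2 for 21 against 7 days over both arms. Normexp gave 0 for E171 at 21 days and for CRC 21 against 2 days. At an adjusted p under 0.05 every count was 0 except that between sexes, which was 2. Of the alternatives added after seeing the data, scan day as a block gave 2 at 7 days. Without the arrays high in neutrophil genes the counts were 0 at 7 days, 2 at 14 days, 0 for CRC 7 against 2 days, 1 for CRC 21 against 7 days, 2 for CRC + E171 21 against 7 days, 0 for 21 against 7 and 1 for 14 against 2 days over both arms, 1 between days and 2 between sexes. The last count leaves out 7 days, where no CRC male remained and the sexes could not be compared, so it covers fewer tests. Without those high in squamous genes they were 2 at 7 days and 0 for CRC 7 against 2, 21 against 7 and 21 against 7 days over both arms. Without those low in posterior Hox genes 21 against 7 days over both arms gave 2, and without those high in pancreatic genes the 4 days gave 2 and the difference between days 1. The causes were not tested.

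With the replicate block of sex and replicate number, 5 members were called for E171 at 7 days, 6 for CRC 7 against 2 days, 4 for CRC 21 against 7 days and 3 for 21 against 7 days over both arms, and no count moved by over 1.5 times. The labels tie the numbers to no animal. Replicate 1 lay on slides 1 to 4 and replicate 2 on slides 5 to 8, and the correlations of same-numbered deviations ran from -0.18 to 0.48.

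Changes of sign, as log2 fold changes, were these. Without the arrays high in neutrophil genes, E171 at 7 days was -1.19 in Aqp8, -0.47 in Car4, -0.73 in Slc26a3, -0.37 in Slc5a8 and 0.0716 in Otop2. CRC 7 against 2 days was 0.28 in Aqp8 and 0.15 in Car4. CRC 21 against 7 days was -0.41 in Aqp8, -0.43 in Car4, -0.0313 in Guca2a and -0.40 in Slc9a3, and over both arms Guca2a was at -0.0257, Slc9a3 at -0.53 and Otop2 at 0.80. Otop2 over both arms, was at 0.0557 (quantile), 0.0701 (normexp), 0.15 (array weights), 0.0406 (sex as a covariate), 0.0430 (replicate block), 0.00957 (no slide term) and 0.35 (without squamous arrays), and from -0.40 to 0.72 leaving out each array. Slc9a3 with array weights was at -0.10 over both arms and -0.0648 in CRC 21 against 7 days, and over both arms it ran from -0.13 to 1.03 leaving out each array. In females at 7 days, Otop2 was at 0.28 with normexp and 0.28 without pancreatic arrays, Car4 at 0.0231 without pancreatic arrays, and without posterior Hox arrays Car1 was at -0.57, Car4 at 0.19, Guca2a at -0.20 and Slc26a3 at 0.32. Leaving out each array the female values ran from -0.57 to 3.11 in Car1, -0.98 to 0.19 in Car4, -0.20 to 1.32 in Guca2a, -0.94 to 0.28 in Otop2, -2.16 to 0.32 in Slc26a3 and -0.65 to 2.67 in Slc9a3. Without squamous arrays Otop2 at 7 days was at 0.21 in males and 0.55 for males minus females, with ranges of -5.74 to 0.21 and -5.41 to 0.55 leaving out each array. Otop2 in CRC 21 against 7 days was at -0.54 without pancreatic arrays and from -0.16 to 2.17 leaving out each array.

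Otop2 was well above background on 12 of 31 arrays, and Slc26a3 on no probe in male 1 of CRC at 7 days, and differences resting on such signals are limited by background.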
